A study of Drosophila melanogaster with 40 samples.

Results

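Sarcomere and muscle structure genes were taken by gene symbol from the read count table of fly legs, as a list of 31 genes among 23932 features. All 31 were found and all 31 passed the filter on low counts. By role the list holds 4 muscle actins, 6 thick filament genes, 9 tropomyosin and troponin genes, 4 genes of giant filament and kinase proteins, 7 genes of the Z disc and the thin filament ends, and Msp300, a nesprin that anchors muscle nuclei. Of these, Act88F, TpnC4 and fln are known as flight muscle genes, and the other 28 served for comparison with them.

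A sarcomere is the contractile unit of striated muscle, in which thick filaments of myosin slide along thin filaments of actin that are anchored in the Z disc. Tropomyosin and the troponin complex on the thin filament make contraction depend on calcium. Drosophila builds 2 broad kinds of adult striated muscle from partly different isoforms. The fibrillar indirect flight muscle of the thorax uses the actin of Act88F, the stretch-activation troponin C of TpnC4 and flightin, the product of fln, which binds the myosin rod. Leg muscles are tubular and use actin of Act79B and other muscle actin genes.

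Legs of male Drosophila melanogaster were sequenced from 2 strains. The control strain was w1118. The second strain, Hsp70-, shares the w1118 allele of the white gene and carries in addition the deficiencies Df(3R)Hsp70A and Df(3R)Hsp70B, which remove 6 heat shock genes (Hsp70Aa, Hsp70Ab, Hsp70Ba, Hsp70Bb, Hsp70Bbb and Hsp70Bc). Untreated males of both strains were taken 7, 23 and 47 days after eclosion. A further group of each strain exercised for 2 h at day 7 and was taken directly afterwards, and another was trained from day 4 to day 22 (19 days) in tubes rotated every 15 s and was taken at day 23, when 24 h had passed since training ended. In each of the 10 groups legs were pooled from 15 flies at a time, and 4 such pools are the replicates behind every mean, SD and test given here. The stocks came from different stock centres and each is 1 stock, so the deletions and other differences between the stocks cannot be told apart.

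Library totals ranged from 21955858 to 29215993 counts at day 7, from 22329878 to 30076080 counts at day 23, and from 35144736 to 39313671 counts at day 47, so age and depth cannot be told apart at day 47. The 5 deleted genes other than Hsp70Bb summed to 1748 counts over the 20 w1118 libraries and 11 over the 20 Hsp70- libraries. Hsp70Bb, whose sequence is close to that of the other copies, had 1149 and 1283, so its counts do not show its deletion. The division of reads among the copies in w1118 is uncertain, and the source of the Hsp70Bb reads in Hsp70- was not tested. The 31 genes held 2.56 to 5.57% of all counts in w1118 libraries and 3.04 to 5.02% in Hsp70- libraries. The summed level of 18 testis markers was over 500 CPM (counts per 1000000 counts of a library) in 3 libraries (1010 to 3352 CPM), which were Hsp70- day 7 replicate 2, w1118 exercised replicate 1 and w1118 trained replicate 1, and at most 127.7 CPM in the others. No limit was set for gut markers, and a further 5 libraries had eye markers over 3000 CPM or accessory gland markers over 500 CPM. Counts of called genes that moved by more than 1.5 times without these libraries are given beside the result.

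In the legs of young flies most genes of the list were above the 3 flight muscle genes per kilobase of annotated exon. Exon bases were taken per gene, such as 1300 for fln, 9804 for Tm1 and 69810 for Msp300, so the order is not one of levels per transcript. Per kilobase of exon, the regulatory light chain gene Mlc2 led the list in w1118 at day 7, with 1732 ± 289 CPM per kb (SD, n = 4), followed by Act79B with 1293 ± 332 CPM per kb and the Z disc gene Zasp66 with 1199 ± 80.7 CPM per kb. Act79B and Zasp66 did not differ beyond their spread. TpnC4 was 24th of 31 with 60.2 ± 9.11 CPM per kb, Act88F was 25th with 40.4 ± 5.38 CPM per kb and fln was 28th with 21.6 ± 3.23 CPM per kb. Hsp70- legs at day 7 had the same 2 leading genes, and TpnC4, Act88F and fln were 23rd, 25th and 27th there. Zasp67, a Zasp66 paralog, was last in both strains and had only 4 to 64 counts per library in the whole series. By day 47 fln was 30th of 31 in both strains.

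Act88F lies on chromosome 3R from 15439969 to 15442177, TpnC4 on chromosome 2R from 5503437 to 5507866 and fln on chromosome 3L from 19989551 to 19991220 (Ensembl BDGP6.54 coordinates, matched by FlyBase identifier and not taken from the count table). Annotated exons of the antisense RNA asRNA:CR45161 cover 61.62% of the exon bases of fln on the opposite strand. In w1118 at day 47 fln had 15 to 27 counts per library and the antisense RNA 33 to 77. The libraries were made with a strand-specific kit, but the strand setting of the counting is not given in the sources used here, so the division of reads between the pair is uncertain. The actin paralogs are near-identical in their coding sequence, and the division of reads among them is uncertain too.

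**Figure D1:**
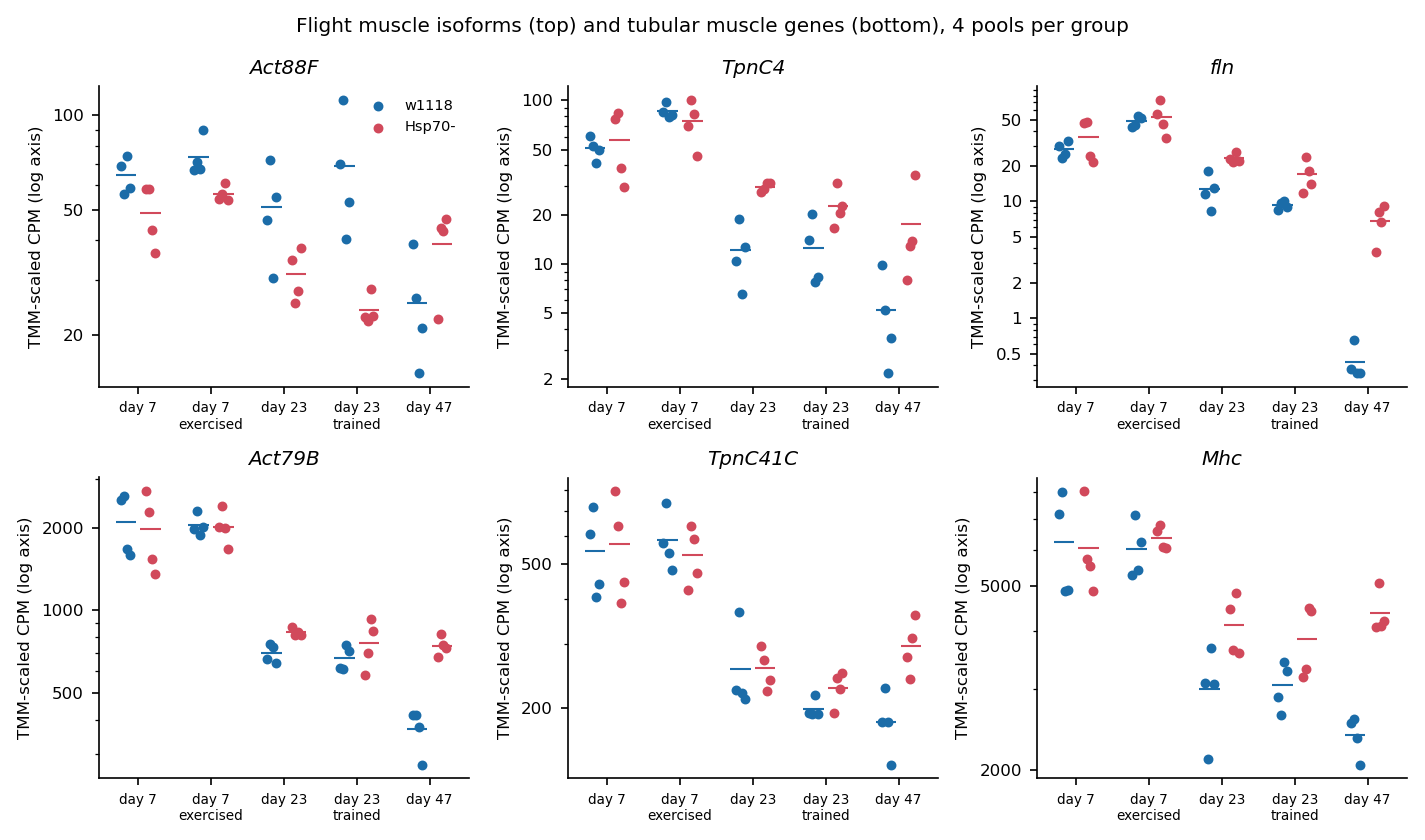
Levels in CPM (log axis, libraries scaled by TMM) of 3 flight muscle isoforms (top row) and 3 other muscle genes (bottom row) in 40 libraries. Points are pools, lines are arithmetic means of 4 pools, blue is w1118 and red is Hsp70-. In w1118, fln goes from 23.7 to 33.0 CPM at day 7 to 0.341 to 0.656 CPM at day 47.

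Levels below are CPM relative to library sizes scaled by trimmed means of M values (TMM), and replicates are given in the order 1 to 4. A gene is called when its edgeR quasi-likelihood p, adjusted by Benjamini and Hochberg over 12939 features, is under 0.05. The first comparison asks how the muscle genes of untreated w1118 legs changed from day 7 to day 47.

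Transcripts of nearly all parts of the sarcomere were lower in old w1118 legs, and among the 31 genes fln had the largest fall. Of 31 genes, 28 were lower and 2 higher at day 47 than at day 7, where 18.5% and 19.2% of all tested features were called lower and higher. The genes called lower were 3 of 4 actins, all 6 thick filament genes, 7 of 9 tropomyosin and troponin genes, all 4 giant protein genes, all 7 Z disc genes and Msp300, and both genes called higher were troponin C genes. The median log2 fold change was −1.29 over the 31 genes and 0.07 over all features. In 28 genes every day 47 library was below every day 7 library, a pattern found in 17% of all features. RNA from a whole leg does not tell fewer muscle cells apart from less RNA per muscle cell.

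For fln the 4 day 7 libraries of w1118 held 30.0, 23.7, 25.6 and 33.0 CPM, the day 23 libraries 11.7, 18.2, 8.27 and 13.0 CPM and the day 47 libraries 0.370, 0.656, 0.341 and 0.342 CPM. The 3 ages did not overlap, and the level at day 47 was 65.2-fold below day 7 (log2 fold change −6.03, SE 0.35, edgeR adjusted p = 1.46e-14). From day 23 to day 47 the log2 fold change was −4.89 (SE 0.33), against −1.14 (SE 0.27) from day 7 to day 23.

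TpnC4 followed the same order with a wider spread. Its w1118 levels were 60.3, 52.9, 41.6 and 49.7 CPM at day 7, 10.5, 18.9, 6.58 and 12.7 CPM at day 23 and 9.93, 5.24, 2.16 and 3.54 CPM at day 47. Every library of days 23 and 47 was below every day 7 library, while days 23 and 47 overlapped. The fall to day 47 was 9.80-fold (log2 fold change −3.29, SE 0.44, edgeR adjusted p = 5.69e-07).

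Act88F had the smallest change of the 3 flight muscle genes. Its levels were 68.8, 56.3, 74.4 and 58.5 CPM at day 7, 46.4, 72.1, 30.3 and 55.1 CPM at day 23 and 38.8, 26.2, 15.1 and 21.0 CPM at day 47. Day 23 overlapped day 7 (log2 fold change −0.34, SE 0.27, edgeR adjusted p = 0.435), and day 47 was below day 7 in every library (log2 fold change −1.35, SE 0.27, edgeR adjusted p = 0.000206). Of the flight muscle markers, salm, whose product is a transcription factor that sets flight muscle fate, is the only one outside the list. It was at 12.9 CPM at day 7 and 9.58 CPM at day 47 on average and was not called (log2 fold change −0.43, SE 0.22, edgeR adjusted p = 0.128).

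Among the 4 muscle actin genes, Act79B fell most. Its w1118 levels were 2518, 2596, 1670 and 1589 CPM at day 7, 665, 758, 738 and 644 CPM at day 23 and 417, 418, 378 and 275 CPM at day 47. The 3 ages were fully separated, and day 47 was 5.63-fold below day 7 (log2 fold change −2.49, SE 0.18, edgeR adjusted p = 2.7e-12). Mhc, the single muscle myosin heavy chain gene, fell from 7152, 7984, 4895 and 4911 CPM at day 7 to 2532, 2585, 2353 and 2057 CPM at day 47 (log2 fold change −1.39, SE 0.17, edgeR adjusted p = 1.19e-07). Replicates 1 and 2 of day 7 were, in both strains, above replicates 3 and 4 for Act79B, Mhc and TpnC41C. The same held for many other genes of the list, among them Mlc1, Mlc2, Prm, Mf, Tm1, Tm2, up, wupA, Zasp52, Actn and Mlp84B. It held for TpnC4 in both strains, and for fln and Act88F only in Hsp70-. The share of all counts held by the list was 5.45, 5.57, 4.49 and 4.43% in w1118 and 5.02, 4.34, 4.10 and 3.98% in Hsp70-. Every comparison with untreated day 7 flies includes these libraries, and the labels name no batch that marks this division. Mlc2 was at 3357 to 4589 CPM at day 7 and 970.2 to 1380 CPM at day 47 (log2 fold change −1.68, SE 0.14, edgeR adjusted p = 7.12e-11).

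TpnC41C, a main troponin C of adult muscle, had 606, 721, 406 and 439 CPM at day 7 and 183, 227, 183 and 139.5 CPM at day 47 (log2 fold change −1.57, SE 0.21, edgeR adjusted p = 5.52e-07). TpnC25D had 134, 133, 96.2 and 98.3 CPM and 56.4, 60.5, 55.4 and 38.6 CPM at the same ages (log2 fold change −1.13, SE 0.17, edgeR adjusted p = 2.63e-06). Both sets of day 47 libraries were below all day 7 libraries. Zasp67 had the third largest fall (log2 fold change −3.05, SE 0.29, edgeR adjusted p = 5.8e-10), but rested on 22 to 37 counts per library at day 7 and 4 to 8 at day 47. The smallest called falls were −0.56 (SE 0.17) for Msp300, −0.65 (SE 0.16) for sls, which encodes the titin-like Sallimus and kettin, and −0.66 (SE 0.17) for Mlp60A, a muscle LIM protein gene.

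The other genes of the sarcomere core moved within a narrow band in w1118. The remaining thick filament genes changed on the log2 scale by −1.48 (SE 0.14) for the essential light chain gene Mlc1, −1.27 (SE 0.13) for the paramyosin gene Prm and −1.44 (SE 0.10) for Mf, which encodes myofilin. The tropomyosin genes changed by −1.17 (SE 0.14) (Tm1) and −1.31 (SE 0.12) (Tm2), the troponin T gene up by −0.93 (SE 0.18) and the troponin I gene wupA by −0.90 (SE 0.10). Among genes of giant proteins, the projectin gene bt changed by −1.07 (SE 0.16), the obscurin gene Unc-89 by −1.28 (SE 0.14) and the kinase gene Strn-Mlck by −1.12 (SE 0.16). At the Z disc and the filament ends the changes were −1.44 (SE 0.12) for the alpha-actinin gene Actn, −1.37 (SE 0.0948) for the tropomodulin gene tmod, −1.16 (SE 0.0883) for Zasp52, −1.29 (SE 0.12) for Zasp66 and −1.45 (SE 0.13) for Mlp84B, a further LIM protein gene. All of these were called, and in all of them the 2 ages did not overlap. Of the 30 calls in w1118, 26 held in every fit that tested the gene, and the exceptions were Mlp60A, Msp300, TpnC47D and TpnC73F. Zasp67, which is among the 26, was not tested under the filter on a minimum count in each library.

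In Hsp70- legs most of these genes fell as well, and the estimated falls were mostly smaller. From day 7 to day 47, 22 genes were lower and 2 higher, against 14.9% and 14% of all features, and the median log2 fold change was −0.66 over the list and −0.02 over all features. In 19 genes every day 47 library was below every day 7 library, against 12.9% of all features. All 6 thick filament genes were called lower, 6 of 9 tropomyosin and troponin genes, 2 of 4 actins, 2 of 4 giant protein genes, and 6 of 7 Z disc genes. All 22 genes called lower in Hsp70- were also called lower in w1118, and no gene was called in opposite directions. The 23 calls shared by both strains were 76.7% of the w1118 calls and 95.8% of the Hsp70- calls.

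Levels of fln in Hsp70- were 46.4, 48.0, 24.5 and 21.7 CPM at day 7, 23.2, 21.6, 26.3 and 22.0 CPM at day 23 and 3.66, 8.06, 6.69 and 9.05 CPM at day 47. Day 23 overlapped day 7, and every library of day 47 was below both. The fall to day 47 was 5.12-fold (log2 fold change −2.36, SE 0.28, edgeR adjusted p = 1.53e-07).

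TpnC4 in Hsp70- had 77.4, 83.9, 38.7 and 29.8 CPM at day 7 and 7.97, 13.0, 13.9 and 35.0 CPM at day 47, and replicate 4 of day 47 overlapped day 7 (log2 fold change −1.72, SE 0.41, edgeR adjusted p = 0.0023). Act88F had 58.1, 58.3, 43.2 and 36.6 CPM at day 7 and 22.5, 43.7, 42.9 and 46.6 CPM at day 47, which overlapped and were not called (log2 fold change −0.33, SE 0.27, edgeR adjusted p = 0.344). Act79B had 2713, 2270, 1543 and 1361 CPM at day 7 and 678, 819.6, 749 and 732 CPM at day 47, with no overlap (log2 fold change −1.41, SE 0.18, edgeR adjusted p = 3.59e-07). Of the flight muscle genes, then, fln and TpnC4 were called and Act88F was not.

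Mhc in Hsp70- had 8033, 5723, 5535 and 4879 CPM at day 7 and 4079, 5096, 4110 and 4206 CPM at day 47 (log2 fold change −0.47, SE 0.17, edgeR adjusted p = 0.0372). Replicate 2 of day 47 lay within the day 7 range. The call was lost in 5 of 11 other settings and in 5 of 8 fits without 1 library. Zasp66 and Mf had larger changes, with log2 values of −1.09 (SE 0.12) and −0.94 (SE 0.10). Zasp67 was close to the threshold (log2 fold change −0.77, SE 0.27, edgeR adjusted p = 0.0493) and was called in 3 of 10 other settings. The giant protein genes bt (−0.39, edgeR adjusted p = 0.0654) and sls (−0.35, adjusted p = 0.0945), Mlp60A (−0.18, adjusted p = 0.405), Msp300 (−0.38, adjusted p = 0.0814) and TpnC25D (−0.32, adjusted p = 0.129) were called in w1118 and did not pass in Hsp70-, and none of these 5 passed the test of the difference between the strains given below.

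**Figure D2:**
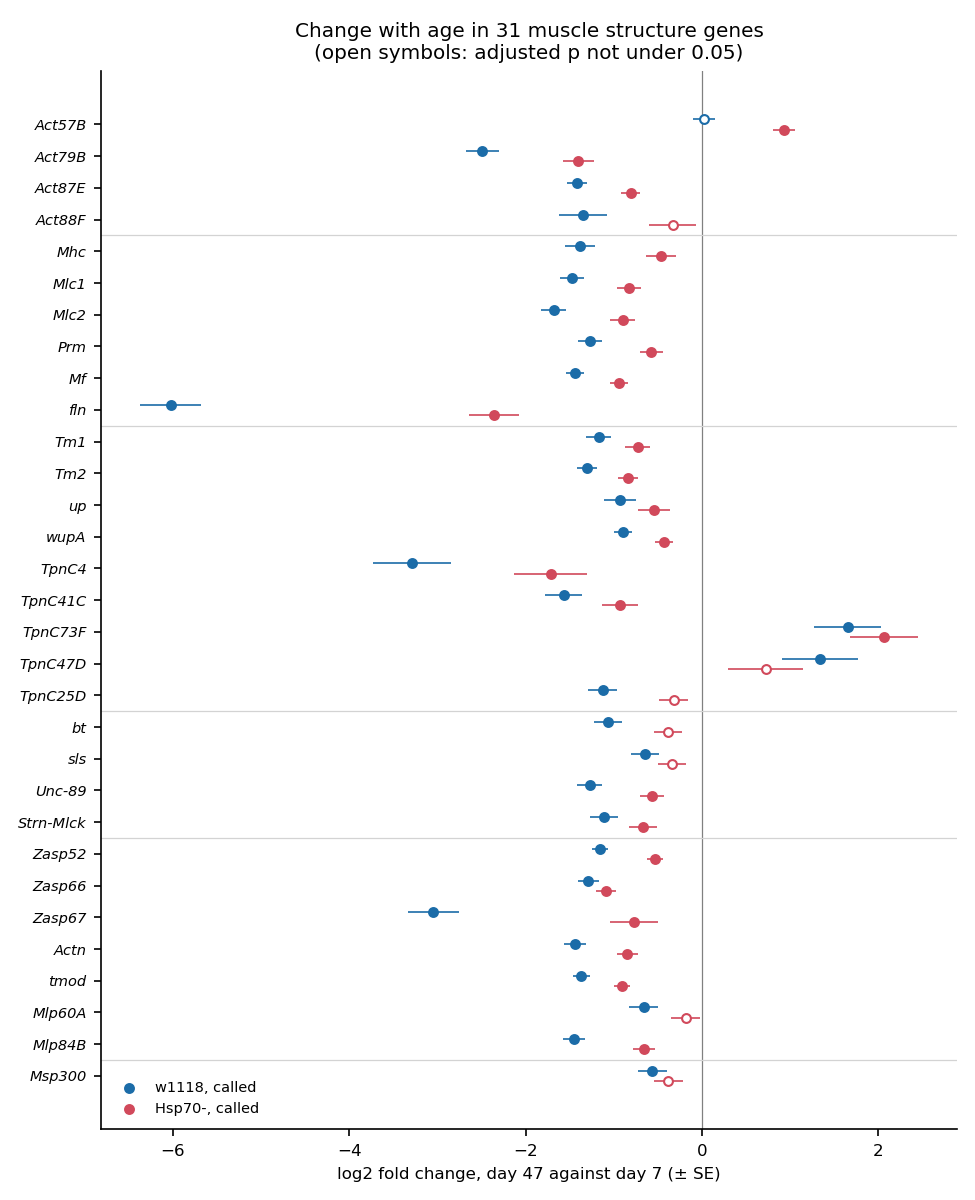
Log2 fold change from day 7 to day 47, with its SE, of the 31 genes in w1118 (blue) and Hsp70- (red), grouped by role. Filled symbols are called at an adjusted p under 0.05, and fln has the lowest value in both strains, −6.03 and −2.36.

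Day 23 divides this change into an earlier and a later step. From day 7 to day 23, w1118 had 23 genes lower and 0 higher (6.21% and 4.84% of all features), with a list median of −0.91 on the log2 scale. The largest falls among the called genes were Zasp67 (−2.58), TpnC4 (−2.07), Act79B (−1.58), Tm2 (−1.19) and Mlp84B (−1.17). Hsp70- had 18 lower and 2 higher in the same interval (9.89% and 7.37%), with a median of −0.58. The largest falls among the called genes there were Act79B (−1.24), TpnC41C (−1.14), Mlc2 (−0.98), Tm1 (−0.80) and Mlc1 (−0.80). No flight muscle gene was called in this interval in Hsp70-: the log2 fold changes were −0.59 (SE 0.27) for fln, −0.95 (SE 0.41) for TpnC4 and −0.65 (SE 0.27) for Act88F, with edgeR adjusted p of 0.113, 0.0914 and 0.0829.

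From day 23 to day 47, w1118 had 15 genes lower and 1 higher (7.31% and 6.07% of all features). After fln the largest falls were TpnC4 (−1.22, edgeR adjusted p = 0.0468), Act88F (−1.01, adjusted p = 0.00982), Act79B (−0.91, adjusted p = 0.000469) and Unc-89 (−0.65, adjusted p = 0.00128), and TpnC73F was the 1 gene higher (1.31, adjusted p = 0.0164). Calls that held in every fit were those of 8 genes, Act79B, Mf, Strn-Mlck, Unc-89, Zasp52, bt, fln and tmod. Hsp70- had 4 genes lower and 0 higher (1.96% and 1.64%), which were fln (−1.76, edgeR adjusted p = 0.000194), Zasp66 (−0.58, adjusted p = 0.0024), tmod (−0.40, adjusted p = 0.01) and Mf (−0.36, adjusted p = 0.0455). With total counts in place of TMM this split was 4 lower and 2 higher. Without day 23 replicate 3, day 47 replicate 3 or day 47 replicate 4 the Hsp70- count was 2.

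A few genes did not follow the fall. Act57B, a muscle actin gene, had 663, 589, 644 and 624 CPM at day 7 and 688, 543, 557 and 768 CPM at day 47 in w1118, which overlapped (log2 fold change 0.02, SE 0.12, edgeR adjusted p = 0.91). Its Hsp70- levels were 519.8, 439, 574 and 566 CPM at day 7, 611, 794, 768 and 908 CPM at day 23 and 802, 1125, 962 and 1105 CPM at day 47. Each later library of Hsp70- was above each day 7 library, and the rise from day 7 to day 47 held in every fit (log2 fold change 0.93, SE 0.12, edgeR adjusted p = 6.98e-07). Exons of Act57B contain snoRNA:660 on the same strand, over 5.57% of their bases.

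TpnC73F, a troponin C gene known mainly from larval muscle, rose in both strains. In w1118 it had 11.9, 9.89, 8.54 and 10.9 CPM at day 7 and 39.98, 9.18, 37.0 and 43.2 CPM at day 47 (log2 fold change 1.65, SE 0.38, edgeR adjusted p = 0.000915). Its Hsp70- levels were 3.10, 3.45, 6.02 and 6.23 CPM at day 7 and 13.0, 19.3, 25.5 and 20.8 CPM at day 47 (log2 fold change 2.06, SE 0.39, edgeR adjusted p = 0.000148). All Hsp70- day 47 libraries were above day 7, whereas w1118 day 47 replicate 2 lay among the day 7 libraries.

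TpnC47D, a further troponin C gene known mainly from larval muscle, had 2.27, 2.04, 0.979 and 2.53 CPM at day 7 and 6.46, 1.34, 6.28 and 5.73 CPM at day 47 in w1118 (log2 fold change 1.34, SE 0.43, edgeR adjusted p = 0.0148). The call was lost without day 7 replicate 3 and without day 47 replicate 1, with edgeR adjusted p of 0.0652 and 0.0501. Its Hsp70- levels were 4.62, 3.95, 4.12 and 3.87 CPM and 5.17, 9.57, 6.51 and 6.02 CPM, with no overlap, but it was not called (log2 fold change 0.72, SE 0.43, edgeR adjusted p = 0.192).

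Gut marker sums were higher at day 47 as well. All 14 listed gut markers were found, 10 to 14 of them had counts in a given library (all 14 in 23 of 40 libraries), and their sum in w1118 was 96.8, 419.9, 113 and 1526 CPM at day 7 and 18840, 2065, 11480 and 22080 CPM at day 47. In Hsp70- the sum was 585, 193, 416 and 1572 CPM at day 7 and 2729, 9055, 6911 and 3348 CPM at day 47. The w1118 day 47 replicate with the lowest gut sum, replicate 2, was also the one with the lowest TpnC73F and TpnC47D. With log sums of testis, eye, gut and accessory gland markers as covariates the w1118 changes were 0.89 (edgeR adjusted p = 0.243) for TpnC73F and 0.90 (adjusted p = 0.354) for TpnC47D, and the Hsp70- change of TpnC73F was 1.77 (adjusted p = 0.00545). The fall of fln in w1118 was −5.70 (adjusted p = 1.08e-11) with these covariates. The part of the gut markers in the troponin C results was not tested beyond these values.

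**Figure D3:**
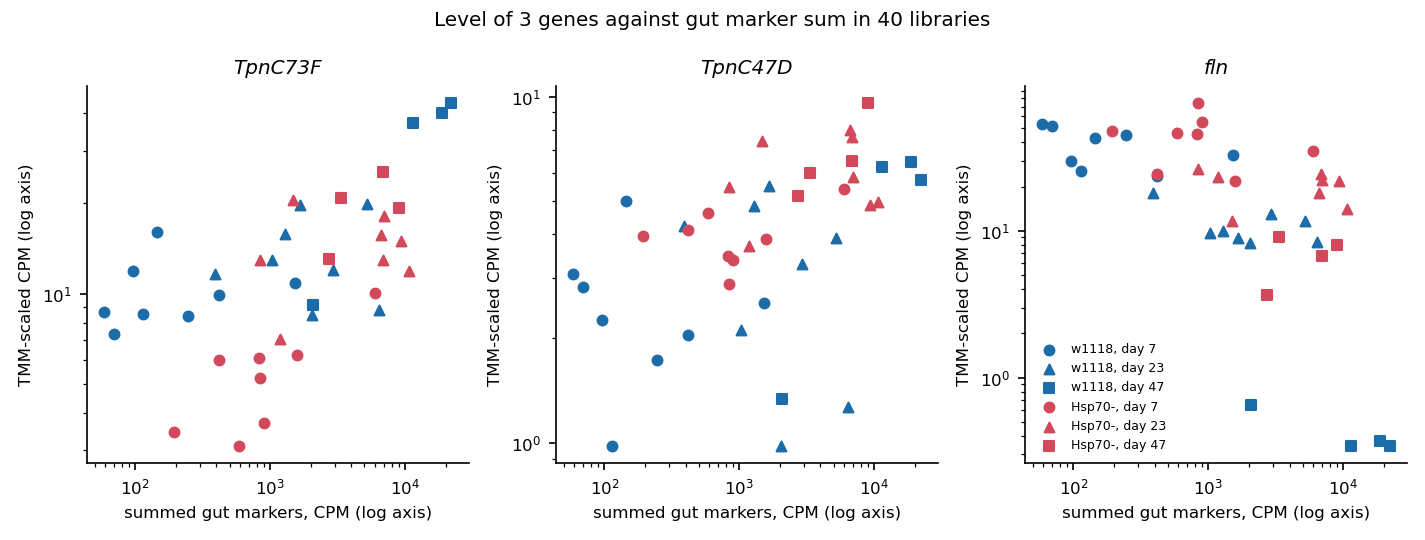
Levels in CPM (libraries scaled by TMM) of TpnC73F, TpnC47D and fln against the summed gut markers (CPM on total counts), both on log axes, in 40 libraries. Colours mark the strain and symbols the age, with treated groups drawn as their age. The w1118 day 47 library with a gut sum of 2065 CPM has 9.18 CPM of TpnC73F and 0.656 CPM of fln.

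Within the actin family the makeup of the counts shifted with age. Act79B made 49.3 ± 4.69% of the counts of the 4 muscle actin genes in w1118 at day 7, 36.0 ± 1.32% at day 23 and 23.8 ± 4.12% at day 47 (SD, n = 4). In Hsp70- its share was 57.1 ± 8.72%, 37.7 ± 2.103% and 32.9 ± 1.17%. The share of Act57B went the other way, from 15.3 ± 2.71% to 40.8 ± 6.32% in w1118 and from 16.0 ± 4.09% to 43.9 ± 3.19% in Hsp70-. The day 7 and day 47 ranges did not overlap for either gene in either strain. Act87E kept 33.8 ± 1.67% and 33.8 ± 2.53% in w1118 at days 7 and 47. Its Hsp70- share was 21.6, 21.4, 28.3 and 30.8% at day 7 and 25.6, 20.5, 20.5 and 19.4% at day 47. These Hsp70- ranges overlapped each other and were below those of w1118 at both ages. Act88F stayed between means of 1.13% and 3.54% over the 10 groups.

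Within the troponin C family, TpnC41C had the largest share of counts in every group, with means from 65.4 to 78.4%. The share of TpnC4 fell from 7.24 ± 1.06% at day 7 to 1.85 ± 1.09% at day 47 in w1118 and was 7.75 ± 2.09% and 4.04 ± 2.14% in Hsp70-, where the ranges overlapped. TpnC73F went from 1.47 ± 0.303% to 12.1 ± 6.56% in w1118. Relative to Mhc counts, fln was at 0.478 ± 0.159% at day 7 and 0.0178 ± 0.00515% at day 47 in w1118, and at 0.576 ± 0.186% and 0.156 ± 0.0514% in Hsp70-. The ranges of the 2 ages did not overlap in either strain.

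**Figure D4:**
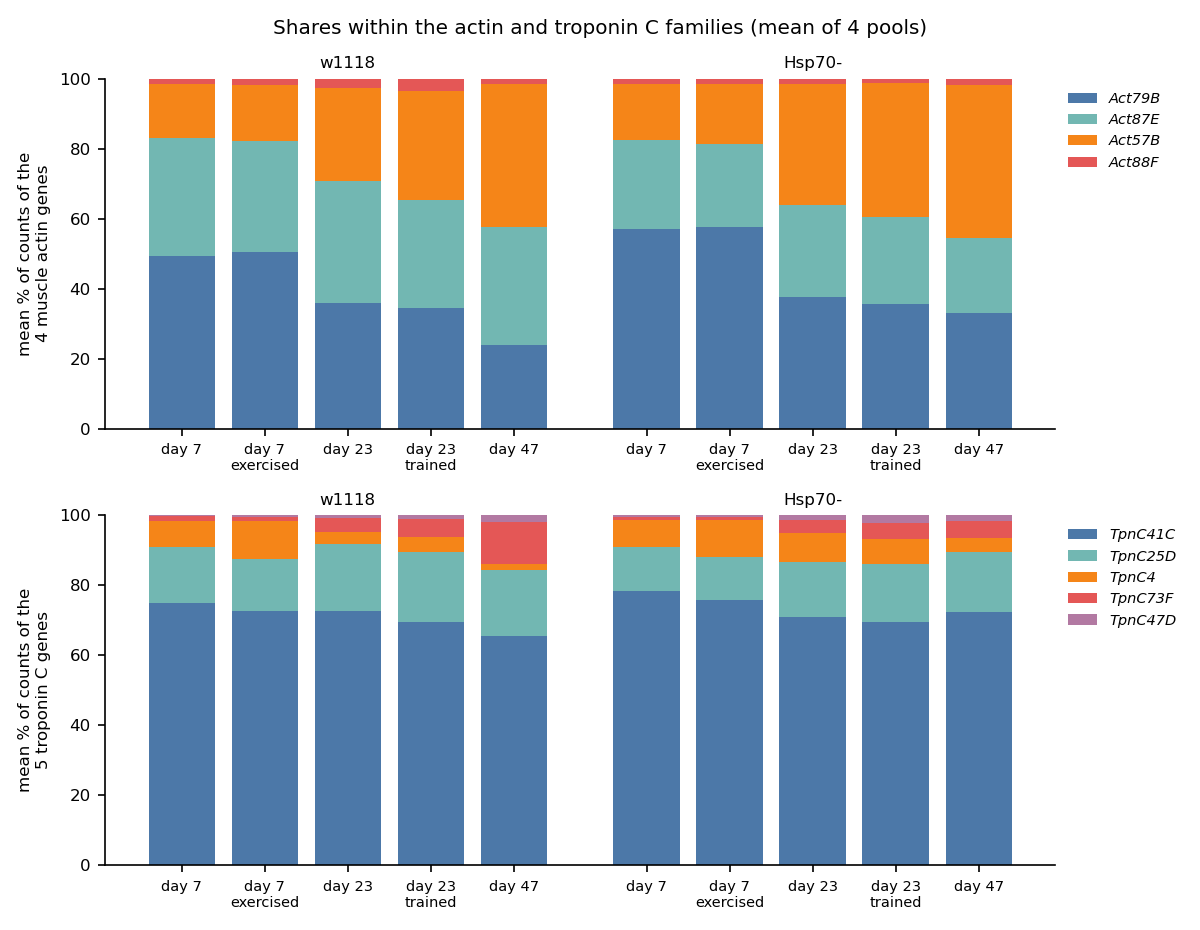
Mean percent of counts held by each gene within the 4 muscle actin genes (top) and the 5 troponin C genes (bottom) in 10 groups of 4 pools. Act79B goes from 49.3% at day 7 to 23.8% at day 47 in w1118, and from 57.1% to 32.9% in Hsp70-.

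Whether the change with age differed between the strains was tested with the interaction of strain and age. This difference between the strains in their log2 fold changes was positive, meaning a smaller fall or a larger rise in Hsp70-, for 30 of 31 genes, and 10 were called, all 10 in this direction, against 1.16% of all features called higher and 0.479% lower. The called genes were 3 of 4 actins, 4 of 6 thick filament genes and 3 of 7 Z disc genes. The difference was 3.67 (SE 0.41) for fln (edgeR adjusted p = 2.61e-06), 2.28 (SE 0.39) for Zasp67 (adjusted p = 0.000711), 1.09 (SE 0.25) for Act79B (adjusted p = 0.0147), 0.92 (SE 0.24) for Mhc (adjusted p = 0.0389) and 0.91 (SE 0.17) for Act57B (adjusted p = 0.00241). Mlp84B, Mlc2, Prm, Zasp52 and Act87E were the others, at 0.60 to 0.79. Between the strains, Zasp67, Act87E and Zasp52 were called lower in Hsp70- at day 7 (−1.51, −0.73 and −0.68). They were not called at day 47 (0.77, −0.13 and −0.06). The other called genes, fln, Act79B, Mhc, Act57B, Mlp84B, Mlc2 and Prm, were not called at day 7 and were called higher in Hsp70- at day 47. TpnC4 (1.57, edgeR adjusted p = 0.141) and Act88F (1.02, adjusted p = 0.143) did not pass.

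Calls in every fit that tested the gene were those of fln, Zasp67, Act57B and Zasp52. Zasp67 was not tested under the filter on a minimum count in each library. The interaction count was sensitive to single libraries: it was 5 and 6 without w1118 day 7 replicates 1 and 2, 19, 6 and 6 without Hsp70- day 7 replicates 1, 3 and 4, 6 without w1118 day 47 replicate 3 and 6 without Hsp70- day 47 replicate 2. Without the 3 libraries with testis markers it was 6, and without all 8 libraries with testis, eye or accessory gland markers it was 4. The shares of all features called in these fits are not given here, so these counts have no background to be set against. Gut marker sums, given above for both strains, were not used in leaving out libraries.

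The strains were also compared within each age. Hsp70- legs had lower levels of a few genes at day 7 and higher levels of 14 genes at day 47. At day 7, 0 genes were higher and 6 lower in Hsp70-, against 15.8% and 9.99% of all features. The 6 were Zasp67 (−1.51, edgeR adjusted p = 0.000113), TpnC73F (−1.13, adjusted p = 0.0301), Act87E (−0.73, adjusted p = 7.42e-06), Zasp52 (−0.68, adjusted p = 4.3e-07), Unc-89 (−0.44, adjusted p = 0.0198) and tmod (−0.41, adjusted p = 0.00179). Without Hsp70- day 7 replicate 1 the count was 10, and without the 8 libraries with organ markers it was 3. Hsp70- day 7 replicates 2 and 4 are among these 8, and no w1118 day 7 library is. The share of all features without them is not given here. The flight muscle genes did not pass at this age, with log2 fold changes of 0.32 (SE 0.27) for fln, 0.17 (SE 0.40) for TpnC4 and −0.40 (SE 0.27) for Act88F.

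Zasp52, which encodes a PDZ and LIM domain protein of the Z disc, was the clearest of these. It had 3083, 3007, 2649 and 2643 CPM in w1118 and 2093, 1789, 1679 and 1530 CPM in Hsp70- at day 7. Act87E had 1581, 1523, 1283 and 1244 CPM and 909, 755, 851 and 875 CPM at the same age. Neither gene overlapped between strains, and both calls held in every fit. The Zasp67 call held in every fit that tested this gene. Zasp67 was not tested under the filter on a minimum count in each library.

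At day 23, 5 genes were higher and 1 lower (8.78% and 9% of all features). TpnC4 (1.29, edgeR adjusted p = 0.0271), fln (0.87, adjusted p = 0.0237), Act57B (0.57, adjusted p = 0.000808), Tm2 (0.56, adjusted p = 0.000467) and Mf (0.41, adjusted p = 0.00399) were higher in Hsp70-, and Zasp52 was lower (−0.40, adjusted p = 0.000952). The fln call was lost without w1118 replicate 1 or 3 or Hsp70- replicate 3, and the TpnC4 call without w1118 replicate 1, 3 or 4 or Hsp70- replicate 3 or 4. Act88F did not pass (−0.70, edgeR adjusted p = 0.0685).

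At day 47, 14 genes were higher and 0 lower in Hsp70- (9.93% and 9.49% of all features), with a list median of 0.46 on the log2 scale and −0.02 over all features. All 6 thick filament genes were called, 2 of 4 actins, 3 of 9 tropomyosin and troponin genes, 2 of 7 Z disc genes and 1 of 4 giant protein genes. In 18 genes every Hsp70- library was above every w1118 library, against 13.2% of all features. The level of fln was 15.9-fold higher (log2 fold change 3.99, SE 0.32, edgeR adjusted p = 2.25e-11), TpnC4 was 3.35-fold higher with overlapping ranges (log2 fold change 1.74, SE 0.42, edgeR adjusted p = 0.00263), and Act79B was 2.00-fold higher (log2 fold change 1.00, SE 0.18, edgeR adjusted p = 7.11e-05).

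Mhc (0.88, edgeR adjusted p = 0.000238), Mlc1 (0.82, adjusted p = 3.21e-05), Prm (0.72, adjusted p = 9.93e-05) and TpnC41C (0.70, adjusted p = 0.0142) were higher too. Act88F was not called (0.62, edgeR adjusted p = 0.105), nor was any of the 3 Zasp genes. Calls in every fit were those of 11 genes: Act57B, Act79B, Actn, Mf, Mhc, Mlc1, Mlc2, Mlp84B, Prm, Tm2 and fln. Exons of Actn share 5.03% of their bases with usp on the same strand and 15.67% with east on the opposite strand. Fitted with only these 2 groups, TpnC4 had an edgeR adjusted p of 0.0755. The antisense RNA opposite fln also differed between the strains in these libraries, with 0.505 to 2.67 CPM over the 20 w1118 libraries and 3.28 to 7.95 CPM over the 20 Hsp70- libraries (CPM on total counts, without TMM), and its part in the fln result was not tested.

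**Figure D5:**
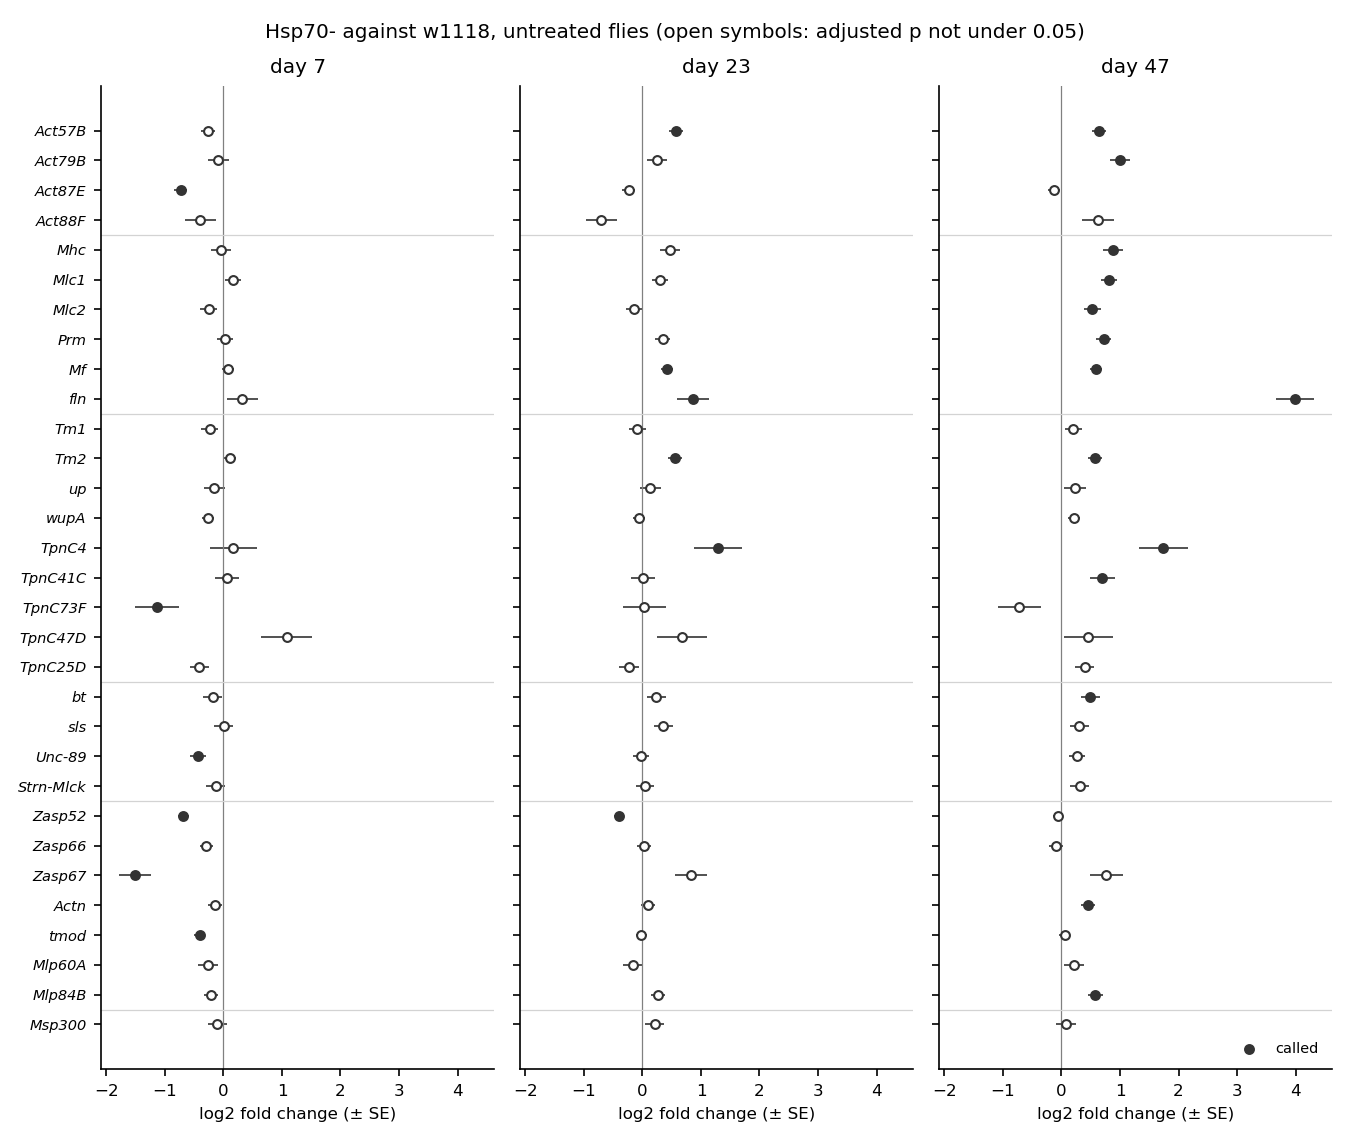
Log2 fold change of Hsp70- against w1118 with its SE in untreated legs at days 7, 23 and 47 for the 31 genes, in the same order as in the plot of age changes. Filled symbols are called at an adjusted p under 0.05. The calls are 6 lower at day 7, 5 higher and 1 lower at day 23, and 14 higher at day 47.

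Exercise and training were compared with untreated flies of the same strain and age, and no gene of the list was called for either in either strain. After 2 h of exercise edgeR called 0 of 31 genes in w1118 and 0 in Hsp70-, against 0.402% and 0.0464% of all features. At an unadjusted p under 0.05 there were 2 genes in each strain. DESeq2 called 1 gene in w1118, Zasp67 (0.87, adjusted p = 0.0161), and 0 in Hsp70-. Exercised w1118 legs held 43.1, 44.8, 53.6 and 51.7 CPM of fln, 84.3, 98.0, 79.6 and 80.8 CPM of TpnC4 and 2.85, 1.86, 2.24 and 2.81 CPM of Zasp67. All 4 libraries were above all unexercised ones for these 3 genes and Mf, a pattern of 2.93% of all features, but the changes did not pass the adjustment (fln 0.78, edgeR adjusted p = 0.189, TpnC4 0.75, adjusted p = 0.375, Zasp67 0.85, adjusted p = 0.164). Act88F had 66.9, 70.9, 67.5 and 90.1 CPM, which overlapped unexercised flies (log2 fold change 0.19, SE 0.27, edgeR adjusted p = 0.803).

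Exercised Hsp70- legs held 55.3, 73.9, 45.8 and 34.7 CPM of fln and 69.8, 101, 82.5 and 45.9 CPM of TpnC4, which overlapped unexercised flies (0.58 (SE 0.27) and 0.38 (SE 0.40) on the log2 scale, edgeR adjusted p = 0.288 and 0.771). The interaction of strain and exercise called 0 genes of the list in edgeR and in DESeq2, 0 at an unadjusted p under 0.05, and 8.27% of all features. Both Hsp70- day 7 replicate 2 (3352 CPM of testis markers) and w1118 exercised replicate 1 (1361 CPM) enter this interaction with the same sign. The share of all features without these libraries is not given here.

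After training, 0 genes were called in w1118 and 0 in Hsp70- by edgeR or DESeq2, against 0% and 0.0464% of all features in edgeR, with 1 and 2 genes at an unadjusted p under 0.05. Trained w1118 legs held 8.38, 9.69, 10.0 and 8.94 CPM of fln (log2 fold change −0.46, SE 0.27, edgeR adjusted p = 0.698) and trained Hsp70- legs 11.7, 24.2, 18.1 and 14.1 CPM (log2 fold change −0.45, SE 0.27, edgeR adjusted p = 1). Act88F had 70.2, 112, 40.5 and 53.1 CPM in trained w1118 legs and 22.9, 22.1, 28.1 and 23.0 CPM in trained Hsp70- legs. Both groups overlapped their untreated counterparts, at 0.44 (SE 0.27) and −0.38 (SE 0.27) on the log2 scale. The interaction of strain and training called 0 genes of the list in either tool, 2 at an unadjusted p under 0.05, and 0% of all features.

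Between the strains within treated flies, exercised Hsp70- legs had 0 genes higher and 7 lower than exercised w1118 legs (8.95% and 11.2% of all features). Zasp67 (−1.72, edgeR adjusted p = 1.69e-05), Act87E (−0.64, adjusted p = 5.7e-05) and Zasp52 (−0.53, adjusted p = 2.83e-05) held in every fit that tested the gene. TpnC25D (−0.49, edgeR adjusted p = 0.0331), Tm1 (−0.40, adjusted p = 0.0422), wupA (troponin I) and tmod did not. Zasp67 was not tested under the filter on a minimum count in each library. The count was 4 and 3 without w1118 exercised replicates 1 and 2, and 3, 4 and 3 without Hsp70- exercised replicates 1, 3 and 4. Without the 3 libraries with testis markers it was 4, and without all 8 with organ markers it was 4 as well. The shares of all features called in these fits are not given here.

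Trained flies had 4 genes higher and 2 lower in Hsp70- (8.41% and 7.17% of all features). Act88F was the largest of the 6, 2.87-fold lower in Hsp70- with no overlap (log2 fold change −1.52, SE 0.27, edgeR adjusted p = 9.89e-05), and the call held in every fit. Zasp52 was lower too (−0.66, edgeR adjusted p = 9.52e-07), while fln (0.88, adjusted p = 0.0249), Tm2 (0.43, adjusted p = 0.00688), Act57B (0.42, adjusted p = 0.0141) and Mf (0.36, adjusted p = 0.0147) were higher. The fln call was lost without the 3 libraries with testis markers (adjusted p = 0.0593).

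Genes that work on sarcomeres without belonging to the list were counted against the same shares of all features, 18.5% lower and 19.2% higher at day 47 in w1118, and 14.9% lower and 14% higher in Hsp70-. Of 10 muscle regulators, 2 were lower at day 47 than at day 7 in w1118, the splicing factor gene mbl (−0.49, edgeR adjusted p = 0.000619) and Mef2 (−0.39, adjusted p = 0.00196), and 0 were higher. The share called lower was thus close to that of all features. In Hsp70- 2 were lower as well, bru1 (−0.84, edgeR adjusted p = 0.0224), whose product splices flight muscle transcripts, and mbl (−0.29, adjusted p = 0.0403). Of 16 genes of sarcomere assembly and muscle attachment, 9 were lower and 2 higher in w1118, and 4 lower and 4 higher in Hsp70-. The formin gene Fhos fell in both strains (−1.58, edgeR adjusted p = 1.03e-07 in w1118 and −1.34, adjusted p = 2.75e-06 in Hsp70-), and so did the paxillin gene Pax (−1.13 and −0.76). The myosin chaperone gene unc-45 rose in both (0.86, edgeR adjusted p = 2.45e-08 in w1118 and 1.00, adjusted p = 3.03e-09 in Hsp70-). The interaction of strain and age called 0 of the 10 regulators and 1 of the 16 assembly genes, the integrin gene if (0.71, edgeR adjusted p = 0.0122).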

How the data were processed

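RNA of male fly legs was sequenced in 40 libraries from 10 groups of 4 pools. The authors deposited whole-number read counts per feature, with no normalization. All 40 columns matched 1 sample each, and 0 were left unmapped. The libraries were polyA-selected and strand-specific per the labels' protocols. The submitters' processing notes name HISAT2 2.1.0, kallisto 0.44.0 and the build BDGP6, with no role. The counting step, its strand setting and its handling of multiply mapped reads are not given in the sources used here.

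Counts were tested with edgeR 4.0.16 in R 4.3.3 (quasi-likelihood F test), in 1 fit of 40 libraries with 1 mean per group, TMM scaling and edgeR's default filter on low counts, which left 12939 of 23932 features and 30 residual degrees of freedom. The Benjamini and Hochberg adjustment ran over all tested features, separately for 18 comparisons. The SE of a log2 fold change is its size over the root of F. For Zasp67, with few counts, the p of some comparisons was larger than this SE implies. Marker sums are CPM on total counts, and the testis sum leaves out Pif1B, which every library held, a choice made after its values were seen. Gene positions come from Ensembl release 115 (23851 of 23932 features matched). The scripts for the count test were tested on simulated data.

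The values printed by library are those of Act88F, TpnC4, fln, their paralogs and Mhc, and in each comparison up to 5 called genes per direction with the largest log2 fold change are named, with up to 4 from each further list. The members, the lists and this rule were chosen with earlier results of these data known. Zasp52, Zasp67 and the smallest falls were described after their values were seen.

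All 60 pairs of replicates differed (chi-square per degree of freedom 25.2 to 345). Same-numbered replicates deviated together in every pair (correlation over 0.1) only for the strains within trained flies (0.117 to 0.470) and for training in w1118 (0.101 to 0.734). Counting intervals were not used; reads carry no molecular identifiers. Alternatives were RLE size factors, TMM without the members, DESeq2 1.42.0, no filter, a minimum of 10 counts in each library, the compared groups alone, a replicate block and each library left out. Added after the data were seen were total counts, marker covariates and leaving out 3 or 8 libraries with organ markers. Zasp67 had fewer than 10 counts in some libraries, so it was not tested with the minimum of 10 counts.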

Additional observations from a re-analysis of the deposited data

Results flagged for a closer look

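In 25 of 310 combinations of gene and group 1 pool stood apart from the other 3, where chance flags about 1 in 20 (15.5). Of these, 16 were high and 9 low. Flight muscle genes gave 4: Act88F at 90.1 CPM in w1118 exercised replicate 4, at 28.1 CPM in Hsp70- trained replicate 3 and, below the rest, at 22.5 CPM in Hsp70- day 47 replicate 1, and fln at 0.656 CPM in w1118 day 47 replicate 2.

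Several flags fell in the same library. Hsp70- day 7 replicate 1 was high for bt (6454 CPM), sls (6375 CPM), Unc-89 (1141 CPM) and Msp300 (2101 CPM), all genes with long transcripts. In w1118 day 23 replicate 2, Strn-Mlck (626.8 CPM) and Msp300 (1044 CPM) were low, and TpnC41C (368 CPM) and Zasp66 (2196 CPM) high. In w1118 exercised replicate 2, Tm1 (1519 CPM), Tm2 (1456 CPM) and wupA (1747 CPM) were high. Low values came from Hsp70- trained replicate 1 for Mlc1 (449.5 CPM), Mf (2656 CPM) and wupA (638 CPM).

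The remaining pools that stood apart were Mhc at 5096 CPM in Hsp70- day 47 replicate 2, up (troponin T) at 1379 CPM and TpnC41C at 218 CPM in w1118 trained replicate 3, TpnC73F at 16.0 CPM in w1118 exercised replicate 1, TpnC25D at 52.7 CPM in Hsp70- trained replicate 2, TpnC47D at 1.33 CPM in w1118 day 47 replicate 2 and Mlp60A at 401.4 CPM in w1118 day 47 replicate 4. The causes were not tested.

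The change from day 7 to day 47 differed between the strains in 10 genes by the edgeR interaction test. The differences, Hsp70- minus w1118 on the log2 scale, were 3.67 for fln, 2.28 for Zasp67, 1.09 for Act79B, 0.92 for Mhc, 0.91 for Act57B, 0.79 for Mlp84B, 0.78 for Mlc2, 0.70 for Prm, 0.62 for Zasp52 and 0.60 for Act87E.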

How the results depend on the processing

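No log2 fold change of the 31 genes that was called changed its sign in any setting. Of 6114 values under the alternatives, 5918 kept their side of the threshold, 130 lost a call and 66 gained one, and of 5208 values without 1 library 150 lost and 38 gained one. Counts of called genes moved by over 1.5 times in these cases. With total counts they were 11 for the strains at day 7, 10 at day 23 and 19 for the interaction of strain and age, and total counts moved the median of all features from 0.07 to 0.33 for day 47 against day 7 in w1118 and from −0.02 to 0.30 in Hsp70-. Without the 8 libraries with organ markers the counts were 3 (strains at day 7), 4 (strains, exercised) and 4 (interaction with age), and without 3 libraries 4 (exercised) and 6 (interaction). With marker covariates they were 3 (exercised) and 5 (interaction). In fits of the compared groups alone, which hold fewer samples, they were 9 (day 47 against 23 in w1118), 12 (day 23 against 7 in Hsp70-), 2 (day 47 against 23 in Hsp70-) and 5 (interaction). The interaction count was 6 with no filter and 17 in DESeq2, which also called 1 gene for exercise in w1118. The shares of all features called in these settings, and in the fits without 1 library below, are not given here. The other causes were not tested.

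Without 1 library, the counts were 4 to 10 (strains at day 7), 4 to 7 (day 23), 12 to 15 (day 47), 3 to 6 (exercised) and 4 to 7 (trained). For age they were 22 to 24, 12 to 15 and 29 to 30 in w1118 (23 against 7, 47 against 23, 47 against 7), 18 to 22, 2 to 5 and 21 to 26 in Hsp70-, and 5 to 19 for the interaction. They stayed at 0 for exercise, training and their interactions. With the replicate block the interaction count was 15, that for the strains in exercised flies was 6, and no count moved by over 1.5 times; outside the comparisons named in the methods the samples share only a number. Zasp67 and, in w1118 at day 47, fln rest on the fewest counts.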

Other observations

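Genes of the non-muscle cytoskeleton were mostly higher in old legs. Of 8 genes listed for the non-muscle cytoskeleton, 7 were higher and 0 lower at day 47 than at day 7 in w1118, and 8 were higher in Hsp70-, where 19.2% and 14% of all features were called higher. The cytoplasmic actin gene Act5C rose from a mean of 835 to 1477 CPM in w1118 (log2 fold change 0.82, SE 0.11, edgeR adjusted p = 7.41e-07) and from 828 to 1534 CPM in Hsp70- (log2 fold change 0.89, SE 0.11, edgeR adjusted p = 3.45e-07). Act42A, the second cytoplasmic actin gene, rose by 1.06 (SE 0.30) and 1.04 (SE 0.30) on the log2 scale (edgeR adjusted p = 0.00624 and 0.0107). The cofilin gene tsr rose too (0.56, edgeR adjusted p = 0.00202 in w1118 and 0.53, adjusted p = 0.00502 in Hsp70-). The interaction of strain and age called 0 of the 8 genes, against 1.16% of all features higher and 0.479% lower.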
